A study of Mus musculus with 4 samples.

Results

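Integrins are the transmembrane receptors, each a pair of 1 alpha and 1 beta subunit, that hold a cell to its extracellular matrix, and focal adhesion proteins tie their inner ends to actin. The genes described here were chosen with earlier results of these data known. The 32 were picked by name, from the functions of their proteins, out of the 32291 features of the count matrices. They comprise 19 integrin subunits (Itga1, Itga2, Itga3, Itga4, Itga5, Itga6, Itga7, Itga8, Itga9, Itga10, Itga11, Itgav, Itgb1, Itgb3, Itgb4, Itgb5, Itgb6, Itgb7 and Itgb8) and 13 adaptors of the adhesion (Tln1, Tln2, Vcl, Zyx, Pxn, Ilk, Parva, Parvb, Fermt2, Flna, Flnc, Ptk2 and Lpp). All 32 were present among the features and had UMIs in cardiomyocyte-like nuclei.

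The series holds single-nucleus RNA sequencing of whole hearts from wild-type mice (genotype WT), collected on postnatal day 12. Pups received saline or AAV9-YAP5SA on postnatal day 7. In the vector, which the protocol text calls AAV-cTNT-YAP5SA, the cardiac troponin T promoter restricts transcription mainly to cardiomyocytes, and YAP5SA is a form of the transcriptional co-activator YAP whose inhibitory serines have been replaced. The mothers ate chow or a high-fat diet (HFD) for 5 days, which gave 4 groups: saline with chow, AAV9-YAP5SA with chow, saline with HFD and AAV9-YAP5SA with HFD. They are called control and YAP5SA, on chow or on HFD, below. Each group was 1 library, and the sources used here do not give the number of hearts per library. As the control injection was saline, the virus and its cargo cannot be told apart.

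Groups follow the sample titles. The treatment field disagrees with the title for YAP5SA on chow, which it places on HFD, and for control on HFD, which it places on chow. With the treatment field, vector and diet would be the same split and neither could be told apart from the other. Reads of Xist and of the Y-linked Ddx3y showed that YAP5SA on chow was mostly male (210 and 3330 UMIs) while the other 3 libraries were mostly female (18838 to 30734 Xist UMIs and at most 13 Ddx3y UMIs). Sex therefore cannot be told apart from the group in any value that rests on that library. The features include 6 sequences added to the mouse genes, none named for the transgene. The mouse Yap1 row, at 169 to 202 CPM (UMIs of the gene per 1000000 UMIs summed over the class) in cardiomyocyte-like nuclei of the 4 libraries, is no check of the vector.

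The libraries held 6977 to 11158 barcodes and 43408234 to 61191454 UMIs. Filters left 6048 to 10009 nuclei per library with medians of 4166 to 5045 UMIs. Pairs of libraries had 11 to 34 barcodes in common, 0.158% to 0.372% of the smaller one. Clustering without the 32 genes gave 25 clusters, named from marker genes and written "-like". Of these, 10 were cardiomyocyte-like, with 3632 and 3151 nuclei in control on chow and on HFD and 4939 and 5169 in YAP5SA on chow and on HFD. Another 2 clusters stayed unnamed and held 3.43% to 8.51% of a library's nuclei. Control and YAP5SA cardiomyocyte-like nuclei sat largely in different clusters. Clusters 4 and 5 held 26.0% and 64.9% of those of control on chow and 61.9% and 27.0% of those of control on HFD. In YAP5SA, clusters 17, 18, 8 and 7 held 31.7%, 22.1%, 15.6% and 7.11% on chow and 20.9%, 12.6%, 16.5% and 36.0% on HFD. Cluster 18 held 0.5 of the cardiomyocyte markers and cluster 24 held 0.714 of them. The 10 leading genes of cluster 24 included genes of cell division (Ska1, Ect2, Cdc25c, Aurka, Hmmr, Cep55 and Cdca3). Of these, Ska1, Cdc25c and Cdca3 were also among those of cluster 3, with 6.88% of its nuclei from YAP5SA. Immune genes were few among the 10 leading genes of clusters 18 (Tnfsf15, Il23r), 17 (Tnfsf8) and 8 (Iigp1).

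Integrins signal in both directions. Talin (Tln1, Tln2) and kindlin (Fermt2) bind the beta subunit's tail and switch the receptor on, vinculin (Vcl) strengthens the link to actin, and the complex of integrin-linked kinase with a parvin (Ilk, Parva, Parvb) joins the tail to actin by another route. In heart muscle these proteins sit at costameres, where the Z-disc is anchored to the membrane, and at intercalated discs. YAP responds to tension at adhesions, and adhesion genes are among the known targets of YAP with its DNA-binding partners of the TEAD family.

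Levels were first compared across 8 cell classes, in CPM, with each gene set against itself only. Pericyte-like nuclei had the highest mean over the 4 libraries for 10 of the 32 genes, endothelial-like, epicardial-like and macrophage-like nuclei for 4 each, cardiomyocyte-like, fibroblast-like and lymphatic endothelial-like nuclei for 3 each and endocardial-like nuclei for 1. For 16 of the 32 the highest class did not overlap the next one in any library, against 26.7% of all 14554 genes with a mean of at least 10 CPM in their highest class. These classes were built from the same nuclei, so the differences are described without a test. Smooth muscle-like nuclei, as few as 19 in a library and left out of the 8 classes, had a mean above the highest class for 10 of the genes. Where another clustering let smooth muscle-like nuclei in as a class (resolution 2, doublets kept, or these genes among the variable genes), they were highest for 10 genes and pericyte-like nuclei for 5, 4 and 4.

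The 3 genes with their highest level in cardiomyocyte-like nuclei were Itgb6, Tln2 and Flnc. Itgb6, whose product pairs with the alpha v subunit and releases latent TGF-beta, stood at 335 ± 80.9 CPM (SD, n = 4 libraries) there, against a mean of 51.1 CPM in the next class, the lymphatic endothelial-like nuclei, and the libraries of these classes did not overlap. Tln2, the talin of costameres, stood at 515 ± 151 CPM against 254 CPM in fibroblast-like nuclei, again without overlap. Flnc, the muscle filamin, stood at 127 ± 32.4 CPM against 63.9 CPM in endocardial-like nuclei, where the libraries overlapped. Cardiomyocyte-like nuclei came first or second for 10 of the 32 genes. Among these was Itga7, the laminin receptor subunit of muscle, which averaged 117 CPM against 279 CPM in pericyte-like nuclei. Itga3, another laminin receptor subunit, was highest in epicardial-like nuclei at 159 CPM. Its second place in cardiomyocyte-like nuclei rested on the YAP5SA libraries, since in control on HFD it stood at 26.9 CPM there and at 32.1 CPM in lymphatic endothelial-like nuclei.

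The beta 1 subunit, common partner of most alpha subunits, was spread over all classes: Itgb1 averaged 314 CPM in cardiomyocyte-like and 574 CPM in endothelial-like nuclei, its highest class. Itga6, a laminin receptor subunit of endothelium, averaged 452 CPM in endothelial-like and 31.4 CPM in cardiomyocyte-like nuclei. Itga4 (287 CPM) and Itgb7 (28.2 CPM), which pair on leukocytes, were highest in macrophage-like nuclei and stood at 1.64 and 1.02 CPM in cardiomyocyte-like nuclei. The 9 T lymphocyte markers also summed to 663 to 1166 CPM in the macrophage-like class, against at most 152 CPM in any library of another class, and their part in Itga4 and Itgb7 was not tested. Itga1, a collagen receptor subunit, averaged 926 CPM in pericyte-like and 163 CPM in cardiomyocyte-like nuclei, and Itga8, a receptor subunit for nephronectin, 250 CPM and 15.3 CPM. For each of these 6 genes the highest class lay above cardiomyocyte-like nuclei in all 4 libraries, without overlap. Itga8 was higher still in the few smooth muscle-like nuclei left out of the 8 classes, at a mean of 1031 CPM. The 7 smooth muscle markers, of which Notch3 is also a pericyte marker, summed to 1755 to 2140 CPM in the pericyte-like class. Smooth muscle-like nuclei had 3293 to 4030 CPM of them. Their part in the pericyte-like levels of Itga1 and Itga8 was not tested.

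**Figure D1:**
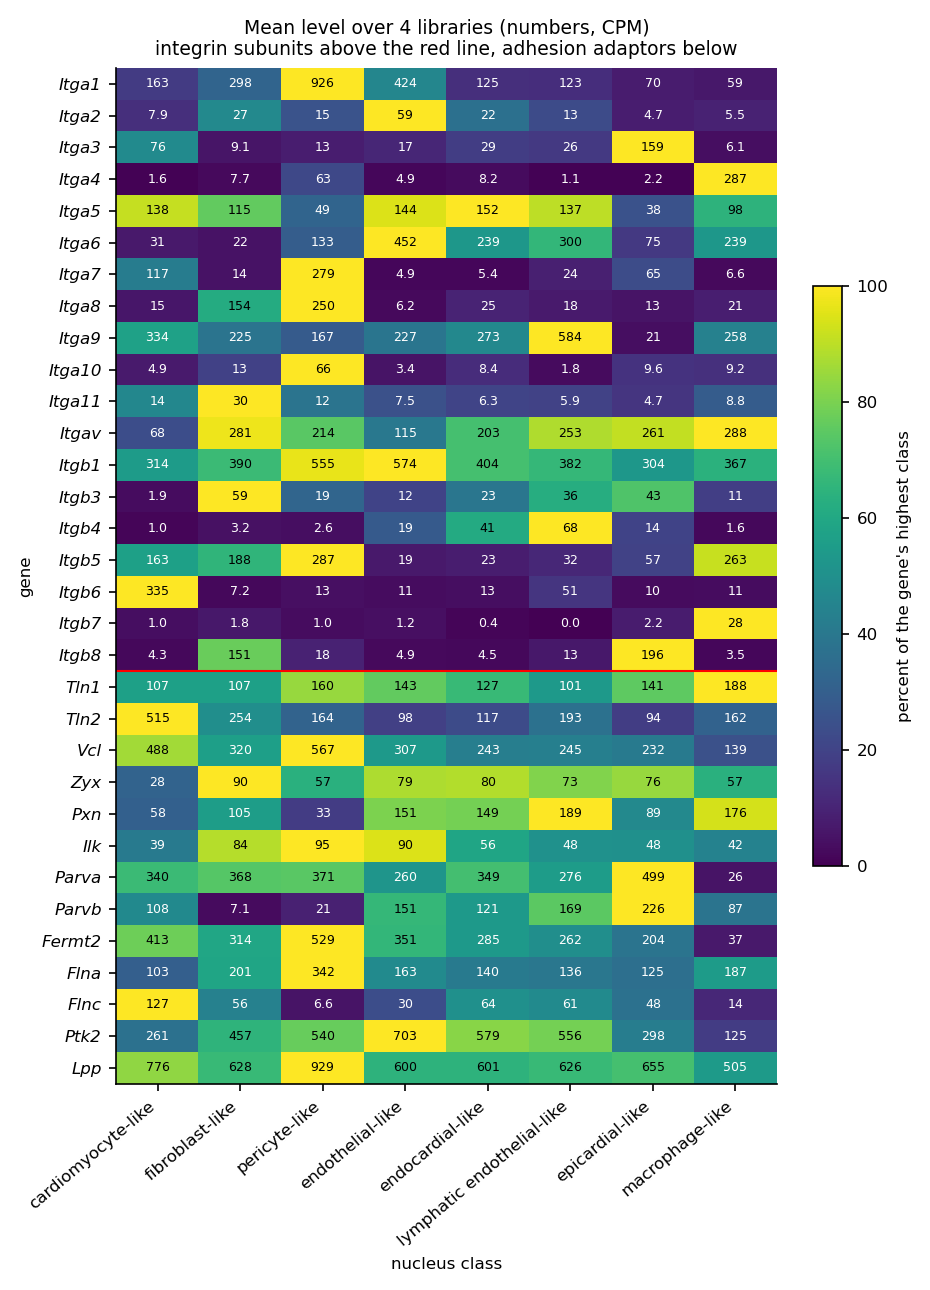
Mean level in CPM over the 4 libraries (numbers) of each of the 32 genes (vertical axis) in 8 cell classes (horizontal axis), with colour giving the level as a percentage of that gene's highest class. Itgb6, Tln2 and Flnc are highest in cardiomyocyte-like nuclei, and 10 genes are highest in pericyte-like nuclei.

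The main question of the design is what the YAP5SA vector changed in cardiomyocytes, the class its promoter is meant for. With 1 library per group, the test set the 2 control libraries against the 2 YAP5SA libraries, so the diets served as the spread within an arm and p-values measure only the spread between these libraries. Among the 16851 genes tested with edgeR's quasi-likelihood test (Benjamini-Hochberg adjusted p under 0.05), 5.85% were higher and 3.23% lower in YAP5SA. All 32 adhesion genes passed the filter on low counts. Of these, 5 rose (Itga7, Itga3, Itgb5, Parva and Tln1) and 1 fell (Parvb), 10 and 2 at an unadjusted p under 0.05 (15.2% and 11.4% of all genes). The median log2 fold change was 0.39 over the 32 and 0.03 over all genes tested, and 25 of the 32 values were above 0. The 19 integrin subunits had 3 of the rises and a median of 0.48, and the 13 adaptors had 2 rises, the fall and a median of 0.16.

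Among the laminin receptor subunits, Itga7 (mm10, chr10:128933818-128958282, + strand) stood at 61.8 CPM (chow) and 51.4 CPM (HFD) in control and at 190 CPM (chow) and 163 CPM (HFD) in YAP5SA cardiomyocyte-like nuclei. Both YAP5SA libraries lay above both controls, with little spread inside an arm, and the log2 fold change was 1.63 (SE 0.17, adjusted p = 0.00539, edgeR). Itga3 (chr11:95044474-95076801, - strand) stood at 49.2 CPM (chow) and 26.9 CPM (HFD) in control and at 126 CPM (chow) and 102 CPM (HFD) in YAP5SA. The controls differed more from each other than for Itga7 but stayed below both YAP5SA libraries, and Itga3 rose by 1.58 on the log2 scale (SE 0.30, adjusted p = 0.0262, edgeR). Itga6 read 31.8 CPM (chow) and 36.9 CPM (HFD) in control against 26.7 CPM (chow) and 30.1 CPM (HFD) in YAP5SA, a log2 fold change of -0.29 (adjusted p = 0.413, edgeR). Itgb4, the partner of Itga6 in hemidesmosomes, stayed between 0.632 and 1.54 CPM in all 4 libraries. The annotation places Mettl7b on the strand opposite Itga7, and whether counting used strand is not given in these sources.

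Among the collagen receptor subunits, Itga1 stood at 105 CPM (chow) and 134 CPM (HFD) in control and at 248 CPM (chow) and 163 CPM (HFD) in YAP5SA. The arms did not overlap, but the YAP5SA libraries differed from each other, and the log2 fold change of 0.77 did not pass (SE 0.24, adjusted p = 0.105, edgeR). Pelo lies within Itga1 on the same strand, so reads of the pair could be split between them. Itga10 had 2.26 CPM (chow) and 2.95 CPM (HFD) in control and 6.71 CPM (chow) and 7.53 CPM (HFD) in YAP5SA, 25 to 117 UMIs per library. Its libraries did not overlap either, at a log2 fold change of 1.44 (adjusted p = 0.0576, edgeR). Itga11 read 9.29 to 11.7 CPM in control and 15.1 to 20.045 CPM in YAP5SA (log2 fold change 0.73, adjusted p = 0.164, edgeR), and Itga2 ranged from 5.73 to 12.4 CPM with overlapping arms.

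Of the receptor subunits for fibronectin and related ligands, none passed. Itga5, the fibronectin receptor subunit, stood at 144 CPM (chow) and 156 CPM (HFD) in control and at 148 CPM (chow) and 106 CPM (HFD) in YAP5SA, so that 1 YAP5SA library lay between the controls and the other below them. Itgav, the alpha v subunit, read 54.9 to 64.8 CPM in control and 71.9 to 82.0 CPM in YAP5SA (log2 fold change 0.35, adjusted p = 0.272, edgeR). Itga8 had its highest value, 28.01 CPM, in YAP5SA on chow and its lowest, 7.66 CPM, in YAP5SA on HFD, with both controls between them. Itga9, a receptor subunit for tenascin-C and osteopontin, stood at 354 CPM (chow) and 451 CPM (HFD) in control and at 268 CPM (chow) and 264 CPM (HFD) in YAP5SA. Its arms did not overlap, and the log2 fold change of -0.61 (SE 0.15) had an adjusted p of 0.0549 (edgeR). Itga4 was within 1.53 to 1.74 CPM in every library.

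Of the beta subunits, Itgb5, which pairs with alpha v as a vitronectin receptor, was the only one past the threshold. Itgb5 (chr16:33829665-33949338, + strand) stood at 133 CPM (chow) and 119 CPM (HFD) in control and at 186 CPM (chow) and 213 CPM (HFD) in YAP5SA. Both YAP5SA libraries were above both controls, and the log2 fold change was 0.65 (SE 0.14, adjusted p = 0.0367, edgeR). Itgb1 also had separate arms, 257 to 265 CPM in control and 348 to 387 CPM in YAP5SA, at a log2 fold change of 0.48 (SE 0.12, adjusted p = 0.0619, edgeR). Itgb6 stood at 222 CPM (chow) and 408 CPM (HFD) in control and at 335 CPM (chow) and 373 CPM (HFD) in YAP5SA. The 2 controls thus held both its lowest and its highest value (log2 fold change 0.15, adjusted p = 0.775, edgeR). Itgb3 (1.26 to 2.44 CPM), Itgb7 (0.526 to 1.93 CPM) and Itgb8 (2.58 to 7.05 CPM) were low in all 4 libraries and did not pass.

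Among the activators of the integrin tail, Tln1 (chr4:43531519-43562691, - strand), the talin of most cells, stood at 85.1 CPM (chow) and 68.2 CPM (HFD) in control and at 147 CPM (chow) and 127 CPM (HFD) in YAP5SA. The arms did not overlap, and Tln1 rose by 0.83 on the log2 scale (SE 0.18, adjusted p = 0.0386, edgeR). Creb3 lies on the strand opposite it. Tln2 stood at 392 CPM (chow) and 426 CPM (HFD) in control and at 728 CPM (chow) and 513 CPM (HFD) in YAP5SA. Its arms were also separate, with a wide gap between the YAP5SA libraries, and the log2 fold change of 0.59 (SE 0.19) had an adjusted p of 0.106 (edgeR). Fermt2, kindlin-2, stayed within 389 to 441 CPM in all 4 libraries (log2 fold change 0.10, SE 0.11, adjusted p = 0.623, edgeR).

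The parvins moved in opposite directions. Parva (chr7:112427505-112591692, + strand), alpha-parvin, stood at 258 CPM (chow) and 255 CPM (HFD) in control and at 472 CPM (chow) and 375 CPM (HFD) in YAP5SA, a rise of 0.71 on the log2 scale (SE 0.15, adjusted p = 0.0379, edgeR). Parvb (chr15:84232043-84315688, + strand), beta-parvin, stood at 144 CPM (chow) and 145 CPM (HFD) in control and at 74.2 CPM (chow) and 66.8 CPM (HFD) in YAP5SA. The arms of both genes were apart in every library, and Parvb fell by 1.05 on the log2 scale (SE 0.15, adjusted p = 0.0123, edgeR). Parva has an antisense gene, Parvaos, on the other strand. Ilk, the kinase-like scaffold that parvins bind, was highest in YAP5SA on chow at 64.2 CPM and lowest in YAP5SA on HFD at 22.1 CPM, around controls of 39.4 CPM (chow) and 29.5 CPM (HFD), and did not pass (adjusted p = 0.716, edgeR).

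Of the remaining adaptors none passed. Vcl stood at 445 CPM (chow) and 473 CPM (HFD) in control and at 581 CPM (chow) and 453 CPM (HFD) in YAP5SA, so that YAP5SA on chow was high and the others were close together (log2 fold change 0.16, SE 0.16, adjusted p = 0.566, edgeR). Flna, the X-linked non-muscle filamin, stood at 96.8 CPM (chow) and 69.2 CPM (HFD) in control and at 142 CPM (chow) and 103 CPM (HFD) in YAP5SA (log2 fold change 0.55, adjusted p = 0.196, edgeR). Flnc was 119 to 153 CPM in control and 84.9 to 152 CPM in YAP5SA. Pxn, the scaffold paxillin, was 63.5 to 73.0 CPM in control and 39.3 to 56.2 CPM in YAP5SA (log2 fold change -0.53, adjusted p = 0.210, edgeR), without overlap. Lpp, a LIM-domain protein of adhesions, was 695 to 720 CPM in control and 781 to 910 CPM in YAP5SA (log2 fold change 0.24, adjusted p = 0.258, edgeR), also without overlap. Zyx, zyxin (24.5 to 34.4 CPM), and Ptk2, focal adhesion kinase (237 to 288 CPM), had overlapping arms.

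**Figure D2:**
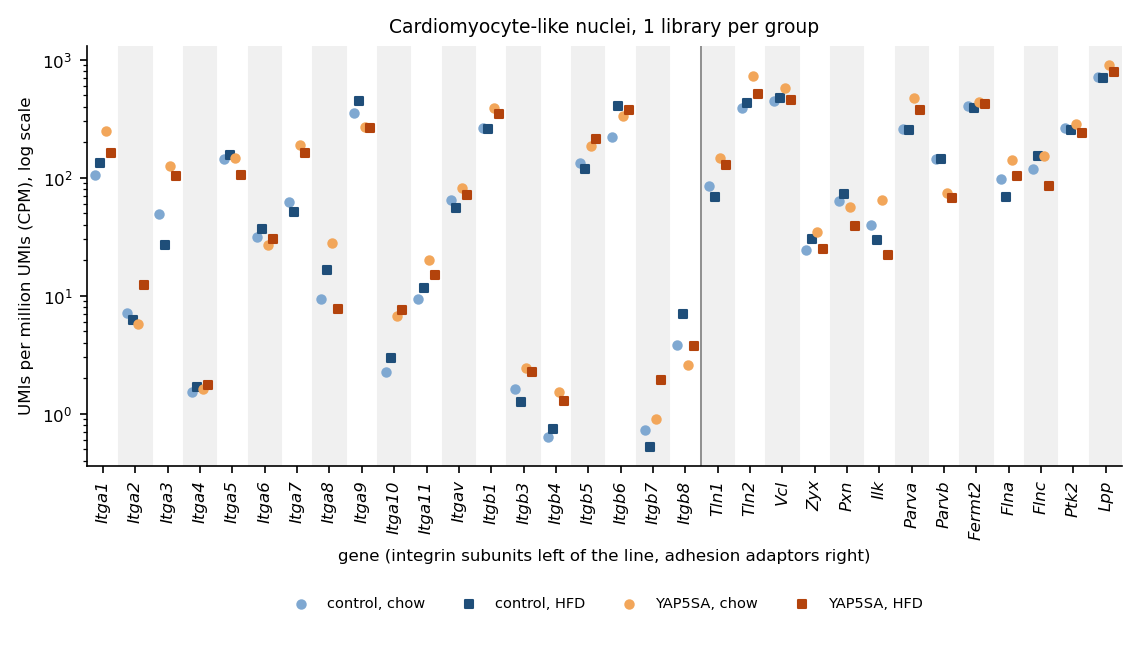
Level in cardiomyocyte-like nuclei (CPM, log axis) of each of the 32 genes in each of the 4 libraries, 1 point per library. Itga7, Itga3, Itgb5, Parva and Tln1 have both YAP5SA points above both control points, and Parvb has both below.

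Markers of the class itself moved with these genes: 5 of 14 cardiomyocyte markers fell in the same test (Myl3, Tnni3, Mybpc3, Myh6 and Myl2), and their summed level was 13387 and 13495 CPM in control and 10972 and 10732 CPM in YAP5SA. Of the 10 macrophage markers, 1 (Lyz2) rose, with summed levels of 60.1 and 77.6 CPM in control and 108 and 152 CPM in YAP5SA. Of the 10 fibroblast markers, 1 (Lamc3) rose, with sums of 532 and 846 CPM in control and 467 and 551 CPM in YAP5SA, and none of the 7 pericyte markers tested rose and 1 (Abcc9) fell, with sums of 552 and 512 CPM against 263 and 320 CPM. Among the other lists, Nrg1 and Cdh11 rose and Hmcn1 fell of 9 endocardial markers, 8 of which had log2 fold changes above 0, while their sums were 796 and 851 CPM in control and 691 and 591 CPM in YAP5SA. The endothelial marker Flt1 rose (sums of the 10 markers 843 and 900 CPM against 621 and 738 CPM), as did Pdpn of 7 lymphatic endothelial markers (251 and 219 CPM against 238 and 243 CPM) and Wt1 of 9 epicardial markers (41.7 and 48.3 CPM against 74.7 and 49.95 CPM). Of 7 atrial markers Stk39 fell (863 and 926 CPM against 955 and 696 CPM), and none of 7 smooth muscle markers passed, with sums of 223 and 246 CPM in control, 551 CPM in YAP5SA on chow and 221 CPM in YAP5SA on HFD. No marker tested from the remaining 8 lists passed. Of the 10 lists given here none held a marker at 0 in all 4 libraries. The part of these levels in the adhesion genes' changes was not tested.

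Most YAP5SA cardiomyocyte-like nuclei sat in clusters with almost no control nuclei, so the same genes were also read by cluster. The 5 clusters with at least 95% of their nuclei from YAP5SA libraries (7, 8, 17, 18 and 24) held 81.8% and 89.0% of cardiomyocyte-like nuclei in YAP5SA on chow and on HFD and 2.07% and 0.793% in the controls. In YAP5SA on chow, Itga7 stood at 97.2 CPM in the clusters shared with controls, 210 CPM in the YAP5SA-rich clusters and 263 CPM in the 2 of these that held the fewest cardiomyocyte markers (18 and 24). Control on chow had 61.2 CPM in the shared clusters. The same 4 values, in the order control on chow shared, then YAP5SA on chow shared, rich and few-marker, were 48.9, 58.2, 141 and 189 CPM for Itga3 and 258, 327, 503 and 639 CPM for Parva. For Parvb the order was reversed, at 144, 106, 67.6 and 38.3 CPM. The few-marker clusters differed from each other, and cluster 24 was the one with genes of cell division among its leading genes. With the libraries pooled, Itga7 stood at 305 CPM in cluster 18 and 119 CPM in cluster 24. It stood at 221 CPM in cluster 17, which held all cardiomyocyte markers. Itga3 stood at 225, 121 and 141 CPM in the same order, so for both genes only cluster 18 lay above cluster 17. In cluster 24, Parva was above cluster 17 (528 and 510 CPM) and Parvb below it (48.9 and 68.1 CPM). For these 4 genes the gap between arms within the shared clusters was smaller than over the whole class, also on HFD, where control and YAP5SA stood at 51.7 and 94.7 CPM (Itga7), 27.03 and 64.4 CPM (Itga3), 254 and 319 CPM (Parva) and 146 and 90.4 CPM (Parvb). Itgb5 stood at 134 and 145 CPM on chow and at 119 and 175 CPM on HFD in the shared clusters, again a smaller gap. Tln1 stood at 84.8 and 93.6 CPM on chow but at 67.9 and 146 CPM on HFD, where the gap was wider than over the whole class. The make-up of the shared clusters differed between arms: cluster 14, of low depth (median UMIs 0.429 of the library's own) and 1.95% mitochondrial UMIs, and the atrial cluster 20 together held 28.7% and 50.9% of the shared nuclei in YAP5SA on chow and on HFD and 2.73% and 7.23% in the controls. Cluster 14 also held 0.714 of the atrial markers, with Sln and Myl7 first among its leading genes. The setting without the atrial cluster left out cluster 20 only. The part of clusters 14 and 20 in these values was not tested.

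Without the 5 YAP5SA-rich clusters, 30 of the 32 genes were tested and 1 passed, Itga7, at a log2 fold change of 0.70 (adjusted p = 0.0498, edgeR). None fell, and of all 15199 genes in that fit 654 were higher and 196 lower. That fit compares nuclei of this unequal make-up. Itga3 was at 0.62, Tln1 at 0.56, Itgb5 at 0.27, Parva at 0.26 and Parvb at -0.62. Without clusters 18 and 24, an alternative chosen after the data were seen, 298 of 16345 genes were higher and 121 lower. Of the 32, again Itga7 alone passed (log2 fold change 1.42, adjusted p = 0.0225, edgeR), with Itga3 at 1.23 and Parvb at -0.82. All 6 genes had the sign given above in each of 15 alternative settings, and they passed in 15 (Itga7), 13 (Itga3), 13 (Parvb), 11 (Tln1), 10 (Itgb5) and 10 (Parva) of them. Leaving out control on HFD lost Itgb5, Parva and Tln1, leaving out control on chow lost Itgb5 and Parva, and leaving out YAP5SA on chow lost Tln1. With diet as a term Itgb5 was lost (log2 fold change 0.65, adjusted p = 0.0514, edgeR). Without YAP5SA on HFD, the median log2 fold change was 0.50 over the 32 genes and -0.01 over all genes tested.

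**Figure D3:**
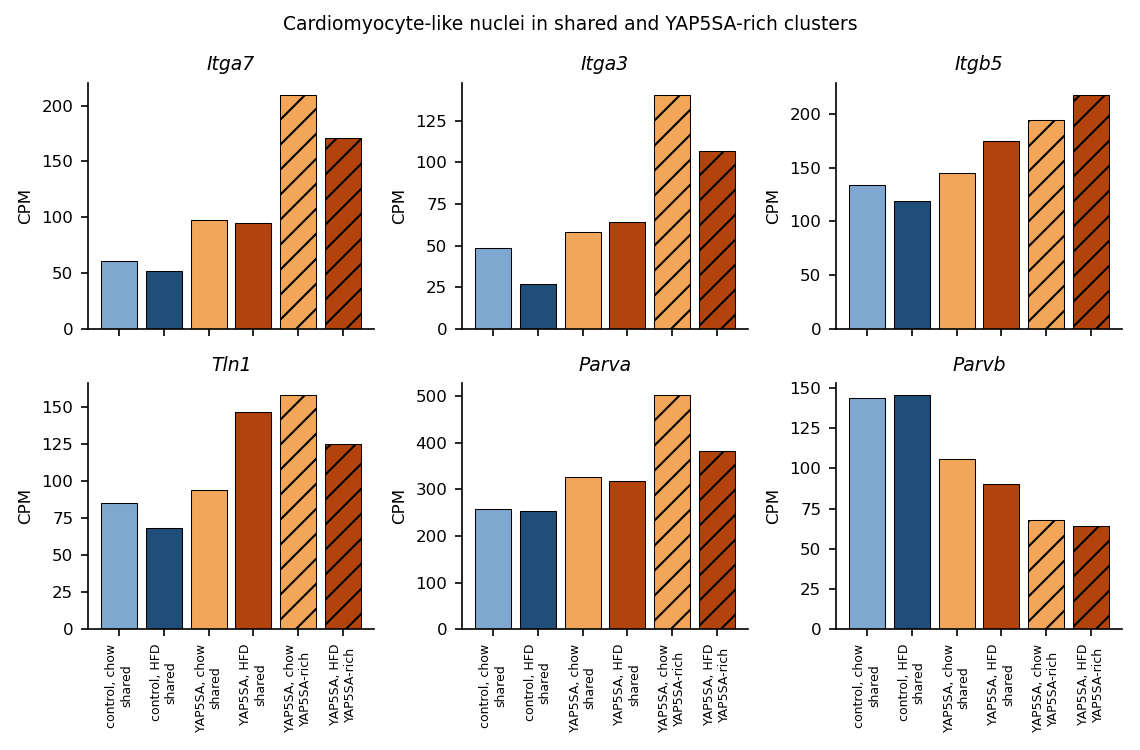
Level (CPM) of the 6 genes past the threshold in cardiomyocyte-like nuclei, by library, in the clusters that also hold control nuclei and in the clusters with at least 95% of nuclei from YAP5SA libraries. In YAP5SA on chow Itga7 is 97.2 CPM in shared and 210 CPM in YAP5SA-rich clusters, and Parvb is 106 CPM and 67.6 CPM.

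Promoter sequence was read for the genes in RefSeq's table for GRCm38.p6. Its windows run from 250 bases before to 50 bases after a start site, which for some windows lies inside the gene. The table held 24 of the 32 genes in 29 windows, with none for Itga6, Itga7, Itgb3, Itgb4, Parva, Pxn, Ptk2 and Tln2. Windows were searched on both strands for GGAATG, the core that TEAD proteins bind, and for the CArG box, the site of serum response factor. GGAATG was in 24.1% of the 29 windows and in 14.7% of all 32851 windows, in those of Flna, Flnc, Itga10, Itgb1, Lpp and Vcl. The windows of Flnc overlap and hold the same GGAATG. A CArG box was in 10.3% of the 29 and in 1.63% of all windows, in those of Fermt2, Itgb6 and Vcl. The matches of Lpp (chr16:24721605-24721904) and Itgb6 (chr2:60673644-60673943) were in windows inside the gene, and the windows at the outer start of these genes held none. The match of Flna was also in a window (chrX:74246485-74246784) inside the gene (chrX:74223461-74249820, - strand). For Flna there was no window at the outer start. The motifs do not overlap each other in these windows, and a match is a description of letters, not of binding. Of the genes past the threshold that had a window, Itga3, Itgb5, Tln1 and Parvb, none held either motif. The 250 bases before the start are shown for Vcl (chr14:20929148-20929397, + strand), the 1 gene with both motifs, for Itgb1 (chr8:128685404-128685653, + strand), whose GGAATG ends next to the start, and for Itgb5 (chr16:33829415-33829664, + strand) and Parvb (chr15:84231793-84232042, + strand), which rose and fell. Capitals mark the motifs, and in Vcl the first is the CArG box.

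Vcl: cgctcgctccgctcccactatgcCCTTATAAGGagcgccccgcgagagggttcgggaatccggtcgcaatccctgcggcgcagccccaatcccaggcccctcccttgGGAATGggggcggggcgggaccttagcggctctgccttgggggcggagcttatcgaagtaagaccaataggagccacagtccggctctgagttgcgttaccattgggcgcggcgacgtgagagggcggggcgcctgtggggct
Itgb1: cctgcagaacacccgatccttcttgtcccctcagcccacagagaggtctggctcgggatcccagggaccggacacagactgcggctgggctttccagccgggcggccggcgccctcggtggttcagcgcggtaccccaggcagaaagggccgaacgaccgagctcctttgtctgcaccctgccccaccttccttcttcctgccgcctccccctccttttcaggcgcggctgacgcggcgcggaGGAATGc
Itgb5: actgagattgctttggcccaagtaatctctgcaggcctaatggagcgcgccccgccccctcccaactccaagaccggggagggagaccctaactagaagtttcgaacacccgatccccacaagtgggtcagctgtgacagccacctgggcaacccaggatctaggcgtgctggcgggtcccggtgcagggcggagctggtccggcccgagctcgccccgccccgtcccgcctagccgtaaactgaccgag
Parvb: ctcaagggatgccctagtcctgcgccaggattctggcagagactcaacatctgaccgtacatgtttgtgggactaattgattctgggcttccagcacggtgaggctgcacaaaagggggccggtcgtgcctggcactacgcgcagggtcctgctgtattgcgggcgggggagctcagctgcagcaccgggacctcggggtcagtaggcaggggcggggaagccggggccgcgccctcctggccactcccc

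Next, each diet was read on its own. Here 1 YAP5SA library was set against 1 control library, so no test was made. The log2 folds carry an exact 95% interval that covers counting error only. Folds were taken for genes at a mean of at least 10 CPM in cardiomyocyte-like nuclei, which kept 25 of the 32 (Itga2, Itga4, Itga10, Itgb3, Itgb4, Itgb7 and Itgb8 were under that level). On chow, 5 of the 25 were at least 2-fold higher in YAP5SA (Itga1, Itga3, Itga7, Itga8 and Itga11), against 7.38% of all 10461 genes at that level, and 0 were at least 2-fold lower, against 5.41%. On HFD, 2 were at least 2-fold higher (Itga3 and Itga7; all genes 8.33%) and 2 at least 2-fold lower (Itga8 and Parvb; all genes 3.37%). The median log2 fold was 0.48 on chow and 0.10 on HFD, with -0.03 and 0.04 over all genes.

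Both intervals lay above 0 for 13 of the 25 genes (23.1% of the 10461 genes), among them all of those that rose in the test, and both below 0 for 4 (Itga6, Itga9, Pxn and Parvb; also 23.1% of the 10461). Itga7 had a log2 fold of 1.62 (95% interval 1.5003 to 1.74) on chow and 1.67 (1.53 to 1.81) on HFD, the closest match among the genes that rose. Itga3 had 1.36 (1.22 to 1.502) and 1.93 (1.74 to 2.12), and Itgb5 0.48 (0.39 to 0.57) and 0.84 (0.75 to 0.94), both higher on HFD. Itga1 had 1.23 (1.14 to 1.33) on chow and 0.28 (0.18 to 0.37) on HFD, where the same sign covered unlike sizes. Tln2 stood at 0.89 and 0.27 and Parva at 0.87 and 0.56, again smaller on HFD. The remaining 7 genes with both intervals clear of 0 (Itga8, Itgb6, Vcl, Zyx, Ilk, Flnc and Ptk2) were above 0 on chow and below 0 on HFD, against 3.55% of the 10461 genes. The widest of these was Itga8, at 1.59 (1.28 to 1.92) on chow and -1.10 (-1.46 to -0.75) on HFD, with 103 to 401 UMIs per library. The interval of Itga5 held 0 on chow (-0.05 to 0.14) and lay at -0.67 to -0.46 on HFD.

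**Figure D4:**
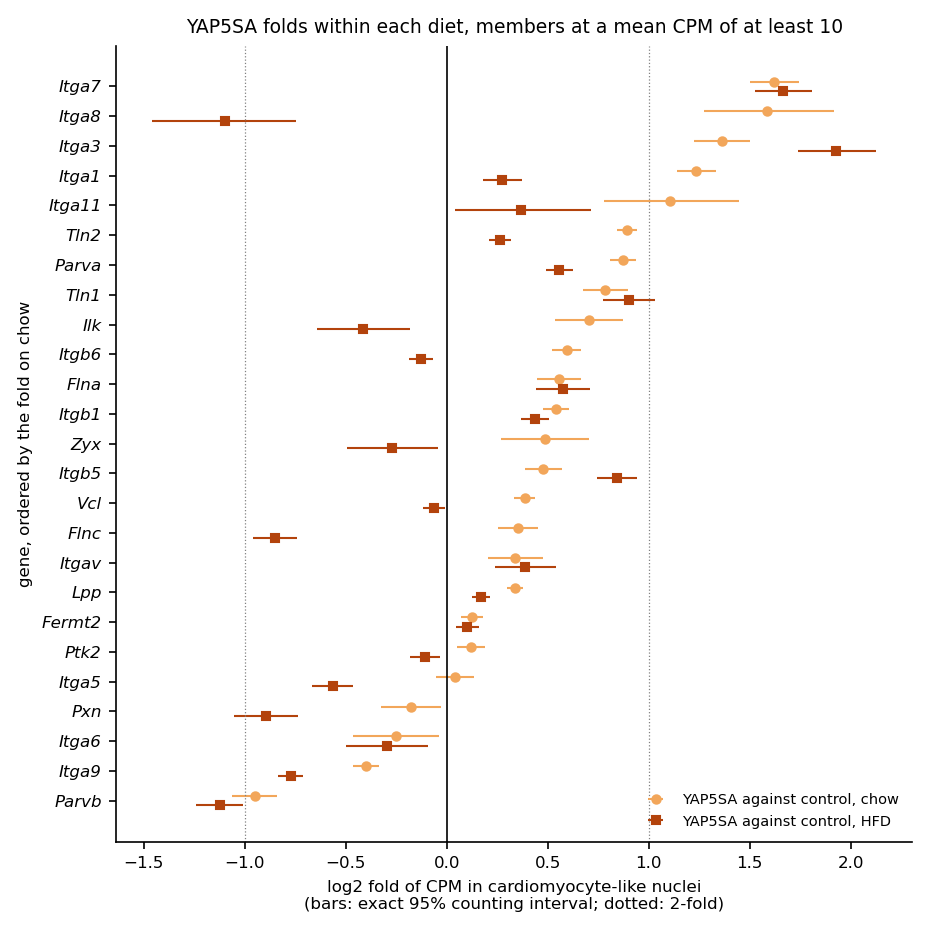
Log2 fold of YAP5SA over control in cardiomyocyte-like nuclei (horizontal axis) on chow and on HFD for the 25 genes at a mean of at least 10 CPM, with bars for the 95% counting interval (1 library against 1). Itga3 and Itga7 lie above 1 on both diets, and Itga8 is 1.59 on chow and -1.10 on HFD.

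The diets were then compared within each arm. Between the controls, 12 of the 25 genes were lower on HFD than on chow, against 55.9% of all 10461 genes. None of the 25 was at least 2-fold higher (all genes 1.33%) or lower (all genes 0.516%). Between the YAP5SA libraries, 22 of the 25 were lower on HFD, against 48.9% of all genes, and for 21 the interval lay below 0 (all genes 31.8%). The median log2 fold was -0.30 over the 25 and 0.01 over all genes. All 13 adaptors were among the 22. Itga8 and Ilk were at least 2-fold lower on HFD (all genes 1.13%), at -1.87 and -1.53 on the log2 scale, and none was at least 2-fold higher (all genes 3.55%). Itgb5 (0.20) and Itgb6 (0.16) had intervals above 0. Sex, diet and the conflict in the labels cannot be told apart in this pair of libraries. Their cluster make-up differed too. Cluster 7 held 7.11% of the nuclei on chow and 36.0% on HFD, and cluster 18 held 22.1% and 12.6%. With the libraries pooled, Ilk stood at 18.3 CPM in cluster 7 and 69.5 CPM in cluster 18, and Parva at 258 and 653 CPM. Of the 25 genes, Itga9, Itgb6, Pxn and Parvb were instead higher in cluster 7. The part of this make-up in the differences between the diets was not tested.

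A test of diet over the 4 libraries with the vector as a term had 1 residual degree of freedom. It called 0% of the 16851 genes higher and 0% lower with edgeR, and so none of the 32. At an unadjusted p under 0.05, Itgb6 was higher on HFD (log2 fold change 0.50), and Itga3 (-0.60), Ilk (-1.002) and Flna (-0.49) were lower, against 2.62% and 1.1% of all genes. DESeq2 called 13 genes higher and 3 lower, with none of the 32 among them.

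The same YAP5SA contrast was run in the classes where the vector's promoter is not meant to be active. In fibroblast-like nuclei 7.57% of the 15358 genes tested were higher and 6.21% lower (edgeR). All 32 adhesion genes were tested: 0 rose and 2 fell, Itga8 and Pxn, with 2 and 3 at an unadjusted p under 0.05 (15.1% and 13.2% of all genes). DESeq2 also called 0 higher and 2 lower (5.68% and 4.77% of all genes). Itga8 (chr2:12106632-12301922, - strand) stood at 254 CPM (chow) and 196 CPM (HFD) in control and at 86.3 CPM (chow) and 80.2 CPM (HFD) in YAP5SA fibroblast-like nuclei. The arms were far apart, and Itga8 fell by 1.48 on the log2 scale (SE 0.15, adjusted p = 0.000346, edgeR), in each of 12 alternatives too. Pxn (chr5:115506676-115555987, + strand) stood at 127 CPM (chow) and 131 CPM (HFD) in control and at 89.8 CPM (chow) and 72.2 CPM (HFD) in YAP5SA. It fell by 0.73 (SE 0.15, adjusted p = 0.0101, edgeR) and did not pass without control on HFD (adjusted p = 0.0787, edgeR). Gm13840 overlaps Pxn on the same strand.

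Fibroblast-like nuclei of the arms also sat in different clusters. Clusters 1 and 11 held 69.2% and 22.6% of those of control on chow and 59.2% and 34.6% of those of control on HFD, and clusters 2 and 13 held 56.1% and 26.1% of those of YAP5SA on chow and 49.5% and 25.9% of those of YAP5SA on HFD. Cluster 13 had genes of cell division (Melk, Kif18b, Ttk and Sgo1) among its leading genes. It held 6.16% of the nuclei of control on chow and 4.8% of those of control on HFD. In the same test 11 of 14 cardiomyocyte markers fell, with summed levels of 2069 and 1909 CPM in control and 1304 and 1089 CPM in YAP5SA, and 4 of 9 fibroblast markers fell. Of 10 endothelial markers, 4 fell (Tek, Cd36, Fabp4 and Cdh5) and 1 rose (Ptprb). Notch3, on both the pericyte and the smooth muscle list, fell. Pdgfrb of the pericyte list and Acta2 of the smooth muscle list rose. From the other lists Plvap, Tmem108, Nppa and Lyz2 rose, and Hmcn1, Npr3, Wt1, Scn7a, Cdh19, Hba-a1, Hbb-bs and Hbb-bt fell. The part of these clusters and markers in the values of Itga8 and Pxn was not tested.

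In endothelial-like nuclei 25 of the 32 genes passed the filter on low counts and none passed the test, where 0.357% of the 11191 genes were higher and 0.259% lower (edgeR). At an unadjusted p under 0.05 none was higher and 6 were lower (Itga2, Itga6, Vcl, Zyx, Ilk and Parva), against 7.09% and 6.64% of all genes, and DESeq2 called none (0.34% and 0.197% of all genes). Itga6, the endothelial laminin receptor subunit, stood at 511 CPM (chow) and 488 CPM (HFD) in control and at 400 CPM (chow) and 409 CPM (HFD) in YAP5SA, a log2 fold change of -0.30 (SE 0.09, adjusted p = 0.144, edgeR). In the same test 3 of 14 cardiomyocyte markers fell, with sums of 2600 and 2417 CPM in control and 1940 and 1703 CPM in YAP5SA, and their part in these values was not tested.

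In endocardial-like nuclei 1 of the 30 genes tested rose, Itgb3, where 0.698% of the 12604 genes were higher and 0.571% lower (edgeR). Itgb3 (chr11:104608000-104670476, + strand), a partner of alpha v best known from platelets and osteoclasts, stood at 7.70 CPM (chow) and 10.5 CPM (HFD) in control and at 37.4 CPM (chow) and 36.7 CPM (HFD) in YAP5SA. These were 6 and 20 UMIs in the controls and 67 and 70 in YAP5SA. The libraries of an arm were close to each other in CPM, and Itgb3 rose by 1.95 on the log2 scale (SE 0.33, adjusted p = 0.0165, edgeR), also in each of the 10 alternatives that could be run. None fell, and Pxn was at -0.67 (adjusted p = 0.0513, edgeR). In the same test 5 of 14 cardiomyocyte markers fell (Myh6, Myl2, Ttn, Actn2 and Mybpc3), with summed levels of 2587 and 2336 CPM in control and 1632 and 1435 CPM in YAP5SA. The atrial marker Nppa and the smooth muscle marker Acta2 rose, with sums of their lists at 376 and 397 CPM against 503 and 418 CPM and at 77.0 and 77.3 CPM against 180 and 88.7 CPM. Their part in Itgb3 was not tested.

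A test of the difference itself compared the vector effect in cardiomyocyte-like nuclei with that in fibroblast-like nuclei of the same libraries. Over 17724 genes the effect was higher in cardiomyocyte-like nuclei for 6.86% and lower for 3.48% (edgeR). Of the 32 adhesion genes it was higher for 5 and lower for 2. The 5 were Itga7 (1.77 on the log2 scale, SE 0.21, adjusted p = 0.00122), Parva (0.88, SE 0.13, adjusted p = 0.00301), Itgb5 (0.90, SE 0.13, adjusted p = 0.00303), Tln2 (0.77, SE 0.14, adjusted p = 0.00981) and Itga3 (1.55, SE 0.40, adjusted p = 0.0401). In fibroblast-like nuclei Itga7 was nearly level, at 14.5 CPM (chow) and 14.2 CPM (HFD) in control and 14.1 CPM (chow) and 13.4 CPM (HFD) in YAP5SA. The 2 lower ones were Itga5 (-0.65, SE 0.17, adjusted p = 0.0385) and Itga6 (-0.83, SE 0.23, adjusted p = 0.0494, edgeR). Neither of these was past the threshold in either class alone, nor was Tln2 of the 5 higher ones. Tln1 missed (0.61, adjusted p = 0.0501, edgeR). Of 14 alternatives, Itgb5 and Parva passed in 14, Itga7 in 13, Tln2 in 11, Itga5 in 10 and Itga3 and Itga6 in 6. Without the YAP5SA-rich clusters Itga6 turned to 0.22, and Itga7 (0.81), Tln2 (0.25) and Itga3 (0.64) did not pass. Over all clusters, the effect was also higher for 6 of 14 cardiomyocyte markers (Ttn, Myh6, Actn2, Rbm20, Ryr2 and Ldb3) and lower for 0. Of these 14, 0 rose in cardiomyocyte-like nuclei and 11 fell in fibroblast-like nuclei. The part of such marker levels in the differences of the adhesion genes was not tested.

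**Figure D5:**
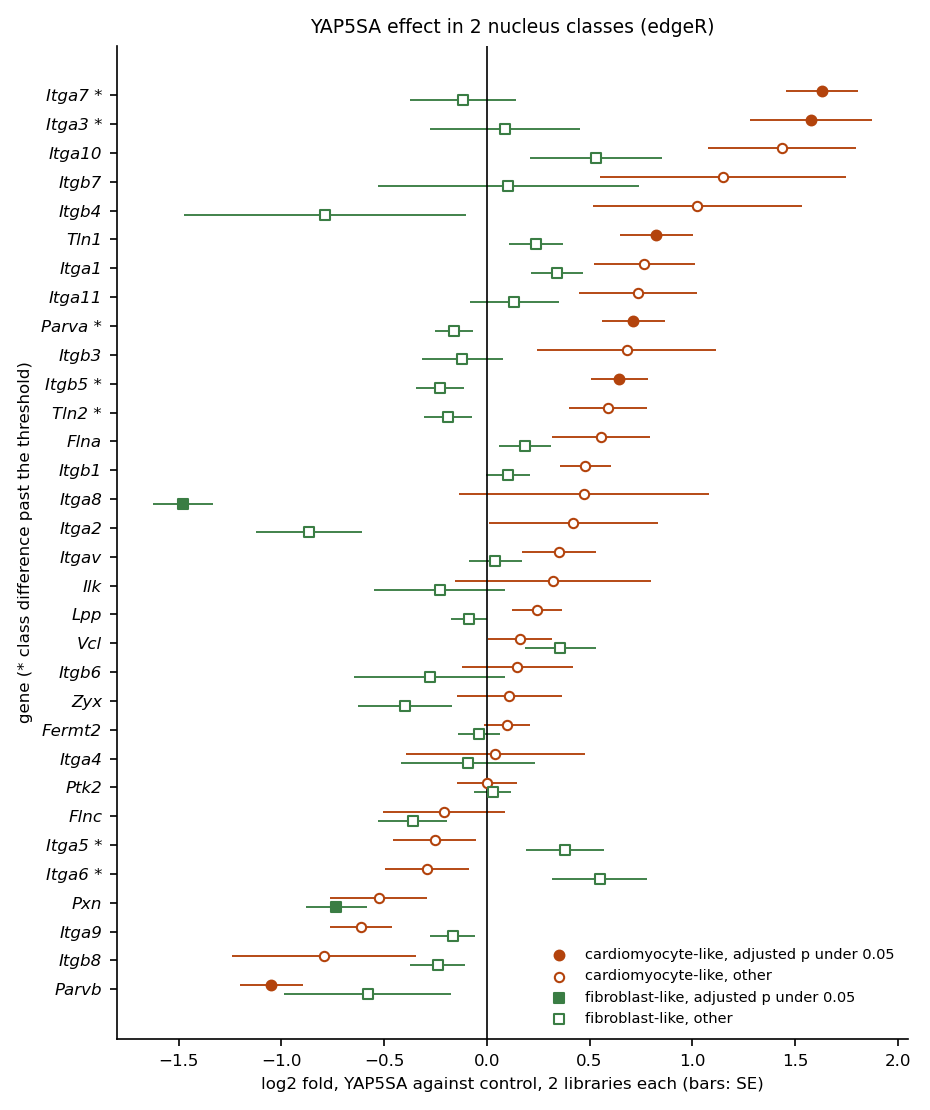
Log2 fold change of YAP5SA over control (edgeR, ± SE, 4 libraries) of the 32 genes in cardiomyocyte-like and fibroblast-like nuclei. Filled points have an adjusted p under 0.05, and an asterisk marks a difference between the classes past that threshold, as for Itga7 at 1.77 and Itga5 at -0.65.

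Other genes of the pathway were read from lists drawn up by function. Of 42 further focal adhesion components, 41 were tested in cardiomyocyte-like nuclei, with a median log2 fold change of 0.05. Of these, 5 rose (among them Tns3, Cav1, Actn4 and Pdlim7) and 2 fell (Fblim1 and Itgb1bp2), against 5.85% and 3.23% of all genes. Tns3, a tensin that links integrin tails to actin, stood at 131 CPM (chow) and 94.7 CPM (HFD) in control and at 361 CPM (chow) and 265 CPM (HFD) in YAP5SA (log2 fold change 1.46, SE 0.22, adjusted p = 0.0139, edgeR). Itgb1bp2, melusin, a muscle protein that binds the beta 1 tail, stood at 349 CPM (chow) and 344 CPM (HFD) in control and at 224 CPM (chow) and 243 CPM (HFD) in YAP5SA (log2 fold change -0.59, SE 0.11, adjusted p = 0.0269, edgeR). Of 30 integrin ligands, 9 rose (5.85% of all genes) and 4 fell (3.23% of all genes), with a median of 0.32. Those named by the smallest adjusted p were Tnc, Spp1, Vcam1, Tgfb3, Ccn2 and Ccn1, which rose, and Ltbp1 and Lamb1, which fell.

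The ligands that rose included partners of receptor subunits described above. Tnc, tenascin-C, stood at 4.69 CPM (chow) and 6.94 CPM (HFD) in control and at 50.4 CPM (chow) and 36.4 CPM (HFD) in YAP5SA cardiomyocyte-like nuclei (log2 fold change 2.89, SE 0.32, adjusted p = 0.00581, edgeR). Ccn2, a matricellular protein and known YAP target, stood at 61.4 CPM (chow) and 66.4 CPM (HFD) in control and at 380 CPM (chow) and 206 CPM (HFD) in YAP5SA (log2 fold change 2.19, SE 0.30, adjusted p = 0.0105, edgeR). Lamb1, a chain of the laminins that Itga3, Itga6 and Itga7 products bind, stood at 145 CPM (chow) and 132 CPM (HFD) in control and at 72.8 CPM (chow) and 71.9 CPM (HFD) in YAP5SA (log2 fold change -0.95, SE 0.15, adjusted p = 0.0143, edgeR). Each had both YAP5SA libraries on 1 side of both controls. Of 7 leukocyte and platelet subunits that are not among the 32, 6 were tested, and Itgam and Itgb2 rose, from 0.105 to 0.361 CPM in control to 1.40 to 4.18 CPM in YAP5SA. They moved with the macrophage marker level given above, and its part in them was not tested. In fibroblast-like nuclei 11 of 28 ligands rose and 3 fell (7.57% and 6.21% of all genes), where none of the 32 adhesion genes rose. Tnc, Spp1, Ccn2 and Ccn1 were among these 11, so their rise was not particular to cardiomyocyte-like nuclei. Ccn2 and Spp1 also rose in endothelial-like and endocardial-like nuclei.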

How the data were processed

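Nuclei of 4 whole-heart libraries were read with 10x 3' chemistry (v3) on a NovaSeq, per the labels. Per the submitters' processing notes, Cell Ranger 7.1.0 and the mm10 build were used. The deposited counts are raw UMI counts per feature and nucleus, with no normalization by the authors. The sources used here give neither the annotation nor how intronic reads were treated.

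Nuclei with under 500 genes or over 5% mitochondrial UMIs were removed, as were doublets called per library with Scrublet (4.51% to 6.93% of nuclei). Where its threshold marked under 0.5% (control on chow, YAP5SA on chow), the top scores at 0.8% per 1000 nuclei were taken instead. Nuclei were clustered over all libraries without integration in scanpy 1.11.5 (3000 variable genes without the adhesion and pathway genes, 30 components, 15 neighbours, Leiden resolution 1) and named from 18 marker lists. UMIs were summed per class and library. Classes of 200 or more nuclei per library were tested with edgeR 4.0.16 (quasi-likelihood, TMM, filterByExpr, R 4.3.3), and DESeq2 1.42.0 was an alternative. The SE is the log2 fold change divided by the root of F. Single-library folds used a prior of 0.5 counts (scipy 1.17.1). Coordinates come from GENCODE by gene identifier. Tests were checked on counts simulated with the same spread for every gene. That spread was set by hand and not estimated from these libraries, so the shares that follow hold for that setting only. Changes of 1 on the log2 scale were called in the right direction for 66.3% of genes in the cardiomyocyte-like test. In the class difference this share was 24%. For changes of 2 the shares were 96.9% and 74.5%. False calls made up 5.95% and 2.02% of the calls.

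All 32 genes are named, and from each pathway list at most 8 genes past the threshold, by adjusted p. Of these, 1 is not reported here. The genes and lists were chosen with earlier results of these data known. Alternatives were other nucleus filters, resolutions, doublet handling, variable genes, clusters, scalings, count filters, tests, priors and CPM floors, and leaving out each library.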

Additional observations from a re-analysis of the deposited data

Results flagged for a closer look

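For 7 genes the YAP5SA effect differed between cardiomyocyte-like and fibroblast-like nuclei of the same libraries, by a test of the difference with edgeR. The effect was higher in cardiomyocyte-like nuclei for Itga7 (1.77 on the log2 scale), Itga3 (1.55), Itgb5 (0.90), Parva (0.88) and Tln2 (0.77), and lower for Itga5 (-0.65) and Itga6 (-0.83). It was also higher for 6 of 14 cardiomyocyte markers, of which 0 rose in cardiomyocyte-like nuclei.

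For another 7 genes the YAP5SA library lay above its control on chow and below it on HFD in cardiomyocyte-like nuclei, with 1 library on each side of each fold. The log2 folds on chow and on HFD were 1.59 and -1.10 for Itga8, 0.59 and -0.13 for Itgb6, 0.39 and -0.06 for Vcl, 0.48 and -0.27 for Zyx, 0.70 and -0.41 for Ilk, 0.35 and -0.85 for Flnc and 0.12 and -0.11 for Ptk2. These differences between the diets were not tested, and the chow pair sets a male library against a female one.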

How the results depend on the processing

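No paired analysis was possible because each group is 1 library and its replicate number ties it to no library of another group. With 1 library per group, leaving one out leaves a lone library in an arm, which is assumed to vary like the others. Depth limits Itga4, Itgb3, Itgb4 and Itgb7 in cardiomyocyte-like nuclei, where they had 5 to 35 UMIs per library. The endocardial-like test under the stricter nucleus filter (at least 1000 genes, at most 1% mitochondrial UMIs) and at resolution 2 was not run, since the class then held under 200 nuclei in a library. The set without cardiomyocyte-like clusters of few markers was chosen after the data were seen.

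In cardiomyocyte-like nuclei 5 genes rose and 1 fell. The counts were 1 and 0 without the YAP5SA-rich clusters (those with at least 95% of nuclei from YAP5SA libraries), 1 and 0 without the few-marker clusters and 9 and 2 with no count filter, 4 and 1 with diet as a term (Itgb5 lost), and 2 fell with doublets kept and with DESeq2. Leaving out 1 library gave 2 to 10 rises and 1 to 3 falls. In fibroblast-like nuclei 0 rose and 2 fell, with 2 rises under no count filter and under a diet term, and 0 to 3 rises and 1 to 4 falls when 1 library was left out. In endothelial-like nuclei the 0 falls became 1 under the stricter nucleus filter, 1 at resolution 2 and 3 with no count filter, with 0 to 1 rises and 0 to 5 falls when 1 library was left out. In endocardial-like nuclei the 1 rise became 2 with no count filter, and the 0 falls became 1 with doublets kept, with no count filter and with a diet term. Without 1 library there were 1 to 3 rises and 0 to 4 falls. The class difference had 5 higher and 2 lower, against 3 higher without the few-marker clusters, 10 higher with no count filter, 1 lower under the stricter nucleus filter and 0 lower with DESeq2, and 3 to 6 higher and 0 to 2 lower when 1 library was left out. The 5 genes at least 2-fold higher on chow became 1 without the YAP5SA-rich clusters and 3 at a mean of at least 50 CPM. The 2 higher on HFD became 4 without the YAP5SA-rich clusters and 4 with no CPM floor, and the 2 lower became 1 without the YAP5SA-rich clusters, 1 without the few-marker clusters and 1 at a mean of at least 50 CPM. The 3 genes highest in cardiomyocyte-like nuclei became 5 under the stricter nucleus filter. The same highest class as reported was found for 26 of the 32 genes under that filter and for 19 at resolution 2, 21 with doublets kept and 20 with these genes among the variable genes, where smooth muscle-like nuclei entered as a class. The share of 2-fold differences on chow that were higher in YAP5SA, over all genes, went from 57.7% to 81.8% without the YAP5SA-rich clusters.

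Log2 fold changes in cardiomyocyte-like nuclei that changed sign were all of genes that had not passed. Without the YAP5SA-rich clusters, where clusters 14 and 20 made up 28.7% and 50.9% of the YAP5SA nuclei left and 2.73% and 7.23% of the control nuclei, Itga6 was at 0.81, Itga11 at -0.013, Itgb6 at -0.41, Itgb8 at 0.99, Vcl at -0.15, Fermt2 at -0.071 and Ptk2 at -0.18. In the same setting Itga6 was at 0.22 in the class difference, where it had passed, and Itga8 at 0.24 for the HFD fold. With 1 library left out, values ran from -0.83 to 1.14 for Itga8, -0.10 to 0.36 for Vcl, -0.22 to 0.35 for Zyx, -0.72 to 0.91 for Ilk, -0.011 to 0.17 for Fermt2 and -0.22 to 0.16 for Ptk2, each lowest without YAP5SA on chow and highest without YAP5SA on HFD. They ran from -0.044 (without control on chow) to 0.089 for Itga4, -0.24 (without control on chow) to 0.64 for Itgb6, -0.20 (without YAP5SA on HFD) to 0.81 for Itga2 and -0.77 to 0.18 (without YAP5SA on HFD) for Flnc. Itga4 was at -0.016 without the atrial cluster and Zyx at -0.018 without the few-marker clusters. Ptk2, at 0.00 as reported, was at -0.0019 under the stricter nucleus filter, -0.023 at resolution 2, -0.022 with doublets kept, -0.0027 with these genes among the variable genes, -0.013 without the atrial cluster, -0.012 without the few-marker clusters, -0.017 with DESeq2 size factors and with DESeq2, -0.0056 with no count filter and -0.0086 with a diet term. For each of these the cause was not tested.

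Over all genes, the 986 higher and 544 lower in cardiomyocyte-like nuclei became 654 and 196 without the YAP5SA-rich clusters, 298 and 121 without the few-marker clusters, 1725 and 1094 with no count filter and 1295 and 903 with DESeq2, and 706 to 1499 and 232 to 1049 when 1 library was left out. In fibroblast-like nuclei 1162 and 953 became 420 to 1343 and 369 to 1156 without 1 library. In endothelial-like nuclei 40 and 29 became 171 and 119 under the stricter nucleus filter, 97 and 83 at resolution 2, 65 and 44 with these genes among the variable genes, 295 and 291 with no count filter, 112 and 97 with a diet term and 24 to 539 and 9 to 509 without 1 library. In endocardial-like nuclei 88 and 72 became 320 and 270 with no count filter, 151 and 140 with a diet term, 46 and 30 with DESeq2 and 68 to 475 and 43 to 428 without 1 library. For the class difference 1216 and 617 became 1825 and 991 with no count filter, 806 and 331 with DESeq2, 665 and 600 without the few-marker clusters and 615 to 1104 and 255 to 685 without 1 library. For diet 0 and 0 became at most 21 higher and 8 lower in any setting, with none of the 32 genes among them.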
